A study of Mus musculus with 6 samples.

Results

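The genes described here mark 2 granulated leukocyte types in the metaplastic nodules of the mouse squamo-columnar junction (SCJ), the border between the squamous forestomach and the glandular stomach. They are 8 mast cell genes, namely the proteases Mcpt1, Mcpt2, Mcpt4, Cma1 and Cpa3 and the receptors Fcer1a, Ms4a2 and Kit, and 2 eosinophil genes, Ear1 and Prg2. The 10 genes were taken by symbol from the deposited table, which names 24647 genes, and each was found on 1 probe set, the group of probes that reports 1 transcript. The rule that takes them uses their symbols alone.

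Nodules of 2 genotypes were compared, *K14-Cdx2::L2-IL-1β* (labelled Cdx2/IL-1B) and *L2-IL-1β* (labelled IL-1B). The *L2-IL-1β* transgene drives human IL-1β in squamous cells lining the esophagus and forestomach, and all mice of both groups carry it. The Cdx2/IL-1B mice have in addition *K14-Cdx2*, in which the keratin 14 promoter of basal squamous cells drives Cdx2, a transcription factor of the intestine. The comparison asks which genes differ in the nodules that carry it. Both genotypes have the strain label C57/BL6, and both received deoxycholic acid, a bile acid, at 0.2% in the drinking water for 12 months from 8 weeks of age. Total RNA of whole excised nodules was run on 1 Affymetrix array per sample, 3 for Cdx2/IL-1B (52540, 52541 and 52542) and 3 for IL-1B (52543, 52544 and 52545). Nodules without IL-1β overexpression were not analysed here, and no source used here says if each sample was 1 mouse. The p-values therefore measure the spread between these samples.

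Mast cells are long-lived granulocytes of mucosa and connective tissue that mature in place under stem cell factor, the ligand of the KIT receptor. Cross-linking of IgE on their high-affinity receptor releases histamine, proteoglycan-bound proteases and lipid mediators. In the mouse, mast cells of mucosal epithelium are known for the chymases Mcpt1 and Mcpt2, and those of connective tissue for Mcpt4, Cma1 and Cpa3. Eosinophils arise in the bone marrow under interleukin 5, enter tissue along eotaxin gradients and are a normal resident of the stomach and intestine. Their granules hold basic proteins, among them major basic protein (Prg2), and RNases of the Ear family.

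Values are log2 intensities, normalized between arrays by the authors, with array medians of 6.62 to 6.65. Each difference is the Cdx2/IL-1B mean minus the IL-1B mean and was tested with limma, with Benjamini-Hochberg adjustment over all 34365 probe sets. A gene was called at an adjusted p under 0.10, with no limit on the fold change. The study's list used a false discovery rate under 10% from another method, together with a change of at least 2-fold. Of all probe sets, 1.84% were called, 0.576% as higher and 1.26% as lower in Cdx2/IL-1B nodules. Cdx2 measured 9.04, 9.72 and 9.83 in Cdx2/IL-1B nodules, against 6.74, 6.87 and 6.80 in IL-1B nodules (log2 fold change 2.73, adjusted p = 0.010 with limma), in the direction of the labels, although its call was lost without sample 52543 (adjusted p = 0.109 with limma). Il1b, the mouse gene, measured 7.45, 8.05 and 7.97 in Cdx2/IL-1B nodules, against 9.44, 8.93 and 9.94 in IL-1B nodules, and was lower (log2 fold change -1.61, adjusted p = 0.070 with limma). The transgene encodes human IL-1β, and whether this probe set detects it is not stated. By quantitative PCR in the esophagus, not in the nodules, the study found IL-1β mRNA unaltered by *K14-Cdx2*. Sample 52540 correlated slightly more with the IL-1B arrays (mean r = 0.990) than with its own genotype (mean r = 0.987). Y-linked genes were high in sample 52541 alone (mean 9.26, against 4.73 to 4.84 in the other 5), and pancreatic acinar genes were high in sample 52542 (mean 10.17, against 6.27 to 6.70 in the other 5). Where leaving out 1 sample moved the difference of one of the 10 genes by over 1.5 times or changed a call, the value without it is given.

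The promoters of the genes on which the results turn are shown first, because those of 2 pairs of family members resemble each other. RefSeq promoters (build GRCm38.p6, 250 bases before to 50 bases after the start) matched 8 of the 10 genes, all but Mcpt2 and Prg2. Capitals mark AGATAA or TGATAA on either strand, the letters bound by GATA factors such as GATA2, a transcription factor of mast cells. The 3 mast cell protease promoters are on chr14:56017714-56018013 (plus strand, Mcpt1), chr14:56062261-56062560 (minus strand, Mcpt4) and chr3:20242132-20242431 (minus strand, Cpa3).
Mcpt1: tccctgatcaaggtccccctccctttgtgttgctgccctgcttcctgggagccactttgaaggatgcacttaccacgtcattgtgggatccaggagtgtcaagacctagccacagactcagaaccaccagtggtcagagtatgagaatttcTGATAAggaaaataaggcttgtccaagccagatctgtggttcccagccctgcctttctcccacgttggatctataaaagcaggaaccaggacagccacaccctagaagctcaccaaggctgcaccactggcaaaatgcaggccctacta
Mcpt4: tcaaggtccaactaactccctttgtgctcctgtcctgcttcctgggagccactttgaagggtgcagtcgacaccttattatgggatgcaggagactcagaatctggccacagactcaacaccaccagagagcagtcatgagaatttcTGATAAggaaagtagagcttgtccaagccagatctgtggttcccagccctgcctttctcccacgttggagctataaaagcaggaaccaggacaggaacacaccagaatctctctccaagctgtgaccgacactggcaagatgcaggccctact
Cpa3: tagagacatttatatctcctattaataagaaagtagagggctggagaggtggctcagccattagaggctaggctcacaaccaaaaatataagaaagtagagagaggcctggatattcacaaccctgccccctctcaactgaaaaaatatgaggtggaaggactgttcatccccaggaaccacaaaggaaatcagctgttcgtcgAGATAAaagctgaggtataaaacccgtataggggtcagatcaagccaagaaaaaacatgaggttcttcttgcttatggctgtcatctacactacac
The promoters of Ear1 (chr14:43819590-43819889, minus strand) and of its family member Ear2 (chr14:44102404-44102703, plus strand) held neither motif.
Ear1: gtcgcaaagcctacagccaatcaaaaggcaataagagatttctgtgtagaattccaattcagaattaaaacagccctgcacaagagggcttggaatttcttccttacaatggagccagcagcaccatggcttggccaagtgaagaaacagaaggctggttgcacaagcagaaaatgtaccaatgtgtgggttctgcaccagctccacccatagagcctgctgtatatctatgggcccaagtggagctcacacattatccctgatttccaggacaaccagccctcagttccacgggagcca
Ear2: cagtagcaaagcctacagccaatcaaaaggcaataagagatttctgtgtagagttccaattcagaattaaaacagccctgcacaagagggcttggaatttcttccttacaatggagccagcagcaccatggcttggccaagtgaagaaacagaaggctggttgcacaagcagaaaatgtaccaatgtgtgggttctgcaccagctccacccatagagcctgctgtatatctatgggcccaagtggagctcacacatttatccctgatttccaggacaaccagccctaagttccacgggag

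The Mcpt1 and Mcpt4 promoters shared 249 identical bases (80.6% of their alignment), and TGATAA lay in both, 99 and 103 bases before the start. Those of Ear1 and Ear2 shared 294 identical bases (97.0%). Every other pair shared at most 48.8% of its alignment. AGATAA or TGATAA was found in the promoters of 5 of the 8 genes (Mcpt1, Mcpt4, Cpa3, Fcer1a and Ms4a2), against 18.6% of 32851 mouse promoters of the same length. CATGTG, an E-box of the mast cell factor MITF, was found in Fcer1a alone, against 14.2% of all promoters, searched on both strands. TTCNNNGAA, the letters bound by STAT5 below the KIT and interleukin 5 receptors, was found in none of the 8, against 8.30% of all promoters. No base was part of 2 motifs. These matches are a description of the letters in the window.

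Among the 10 genes, Ear1 was lower in Cdx2/IL-1B nodules and was the only one called, while no gene was called higher. The differences of all 8 mast cell genes were above 0 and those of both eosinophil genes below 0. The median difference was 0.40 on the log2 scale over the 10 genes and 0.49 over the 8 mast cell genes, against -0.01 over all probe sets, of which 47.3% were above 0. The genotypes did not overlap for 5 genes, with Mcpt4, Cma1, Fcer1a and Kit higher in every Cdx2/IL-1B sample and Ear1 lower, against 19.8% of all probe sets (8.3% higher, 11.5% lower). At an unadjusted p under 0.05, limma passed 6 of the 10 genes, against 13.7% of all probe sets. At the 1.5-fold and unadjusted p under 0.01 of the study's methods, it passed 2 (Ear1 lower, Mcpt4 higher), against 1.82% of all probe sets. With 3 samples against 3, the exact two-sided permutation test cannot go below 0.10. In RNA of whole tissue, a smaller number of cells and less RNA per cell cannot be told apart.

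**Figure D1:**
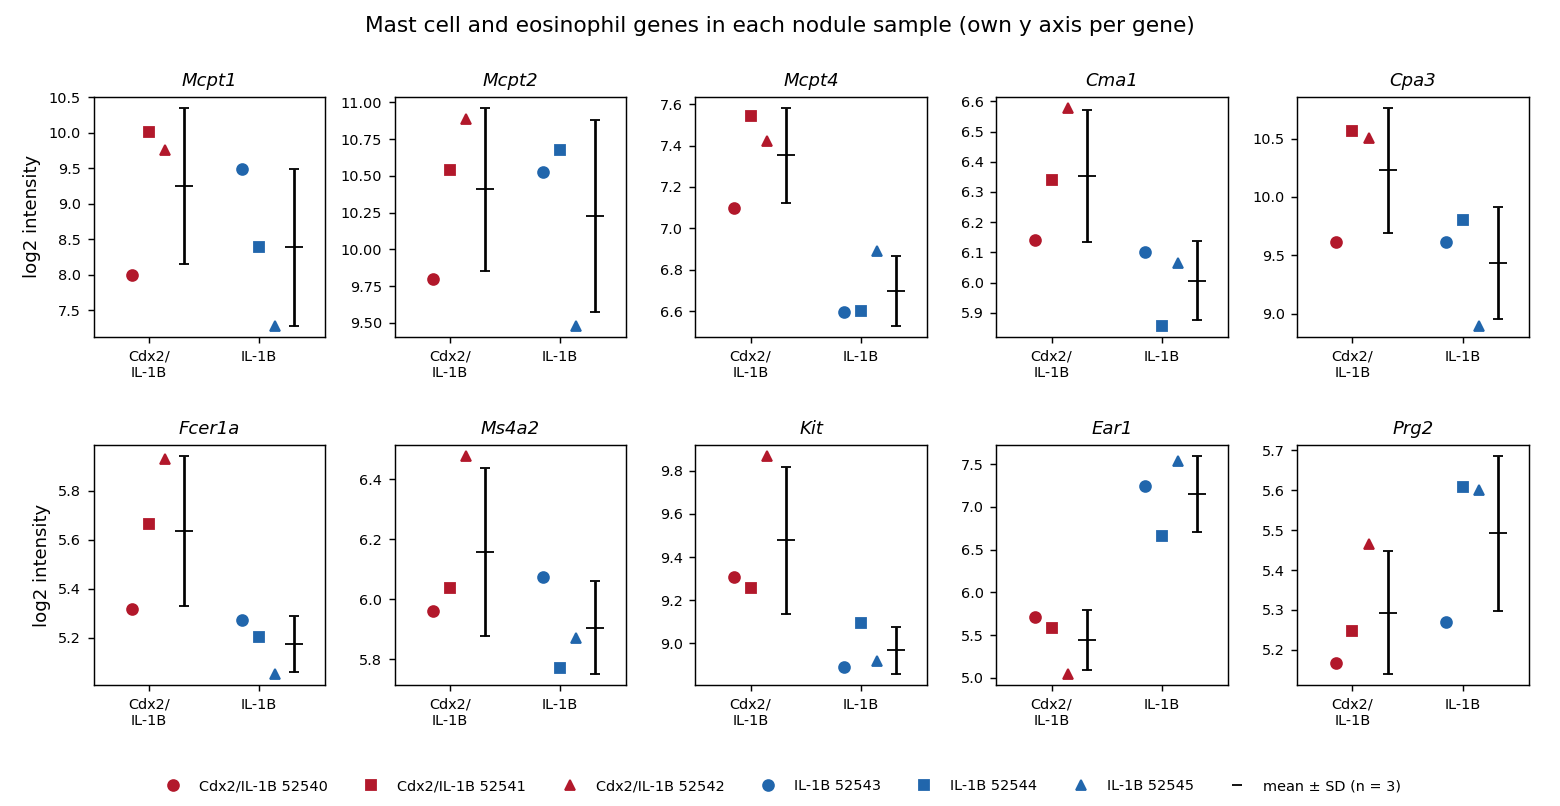
Log2 intensity (y axis, own range per gene) of the 8 mast cell and 2 eosinophil genes in each sample, with the Cdx2/IL-1B samples (red) left of the IL-1B samples (blue), and the mean ± SD of 3 samples beside them. Mcpt4, Cma1, Fcer1a and Kit lie higher in every Cdx2/IL-1B sample, Ear1 lies lower in every one, and the other 5 genes overlap.

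Mcpt1 and Mcpt2, the mucosal chymases, varied more within each genotype than between the 2. Mcpt1 (chromosome 14, 56636801 to 56639228, build NCBIM37) measured 7.99, 10.01 and 9.76 in Cdx2/IL-1B nodules, against 9.50, 8.39 and 7.28 in IL-1B nodules. It spanned 2.01 among the Cdx2/IL-1B samples and 2.22 among the IL-1B samples, and the genotypes overlapped widely. Its log2 difference was 0.87 (95% interval -0.82 to 2.56), with an adjusted p of 0.65 by limma. Without 1 sample the difference of Mcpt1 was 1.5 (without 52540), 0.49 (52541), 1.42 (52543) or 0.31 (52545). For Mcpt2 the values overlapped too. Mcpt2 measured 9.80, 10.54 and 10.88 in Cdx2/IL-1B nodules, against 10.53, 10.68 and 9.48 in IL-1B nodules. Sample 52545 held the lowest value of both genes, and sample 52540 the lowest of the Cdx2/IL-1B values. Mcpt2 differed by 0.18 on the log2 scale (95% interval -0.75 to 1.11, adjusted p = 0.89 with limma), and it turned to -0.19 without sample 52545 and to -0.06 without sample 52542. Without another sample it was 0.11 (without 52541) to 0.49 (without 52540).

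Mcpt4, the main chymase of connective tissue mast cells, was higher in every Cdx2/IL-1B sample but was not called. It measured 7.10, 7.54 and 7.42 in Cdx2/IL-1B nodules, against 6.60, 6.60 and 6.89 in IL-1B nodules. The lowest Cdx2/IL-1B value therefore lay 0.20 above the highest IL-1B value. It averaged 7.35 ± 0.23 in Cdx2/IL-1B nodules and 6.70 ± 0.17 in IL-1B nodules (SD, n = 3 each, exact permutation p = 0.10), and the log2 fold change was 0.66 (standard error 0.14, 1.58-fold). With limma the adjusted p was 0.115, just above the threshold, and it ran from 0.043 to 0.39 over 16 alternatives. Mcpt4 was called in 6 of them. One was the fit without sample 52540, with a log2 fold change of 0.78 and an adjusted p of 0.048.

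Cma1, another chymase of connective tissue mast cells, also lay higher in every Cdx2/IL-1B sample, by less. It measured 6.14, 6.34 and 6.58 in Cdx2/IL-1B nodules, against 6.10, 5.86 and 6.06 in IL-1B nodules. The nearest samples of the 2 genotypes, 52540 and 52543, lay 0.04 apart, and the log2 fold change was 0.35 ± 0.13 (standard error), with an adjusted p of 0.31 by limma. Cpa3, the carboxypeptidase stored with the chymases, measured 9.61, 10.57 and 10.51 in Cdx2/IL-1B nodules, against 9.61, 9.80 and 8.89 in IL-1B nodules. Sample 52540 stood at the level of the IL-1B samples, so that the genotypes overlapped. Cpa3 had a log2 fold change of 0.79 (95% interval 0.01 to 1.58, adjusted p = 0.36 with limma), which was 0.52 without sample 52545.

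The mean of the 5 protease genes was 8.13, 9.0 and 9.03 in Cdx2/IL-1B nodules, against 8.47, 8.26 and 7.72 in IL-1B nodules. Sample 52540 again fell among the IL-1B samples. Across the 8 mast cell genes, it held the lowest Cdx2/IL-1B value of 7, while samples 52541 and 52542 held the highest value of all 6 samples for 3 and 5 genes. Without sample 52540, Mcpt1 and Cpa3 were also higher in every remaining Cdx2/IL-1B sample, which made 6 genes higher and 1 lower, against 38.4% of all probe sets. Leaving out another sample gave 5 to 7 genes in all, against 26.5% to 31.6% of all probe sets.

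**Figure D2:**
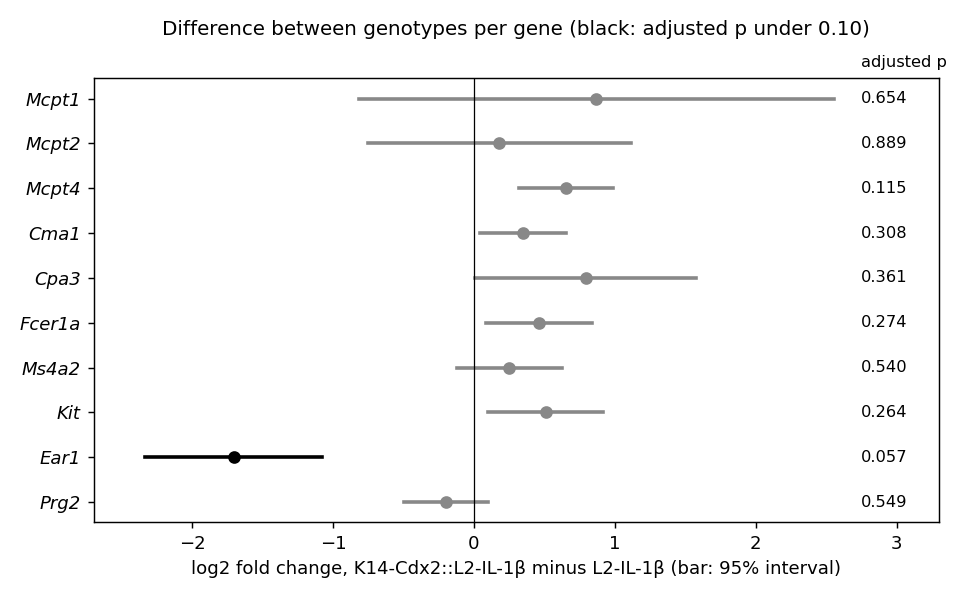
Log2 fold change of each gene (Cdx2/IL-1B minus IL-1B, x axis) with its 95% interval from limma, and the adjusted p at the right. The interval of Ear1 lies below 0 from -2.33 to -1.08 and is drawn in black as the only one with an adjusted p under 0.10, and those of Mcpt1 and Mcpt2 are among the widest.

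Of the high-affinity IgE receptor, the alpha chain stood higher in every Cdx2/IL-1B sample, and no chain was called. Fcer1a, its IgE-binding alpha chain, measured 5.32, 5.66 and 5.93 in Cdx2/IL-1B nodules, against 5.27, 5.20 and 5.05 in IL-1B nodules. The genotypes did not overlap, although samples 52540 and 52543 were 0.05 apart. Fcer1a differed by 0.46 ± 0.16 (log2 units, standard error), with an adjusted p of 0.27 by limma, and without sample 52540 it was 0.62 (adjusted p = 0.063 with limma), which passed the threshold. Ms4a2, the beta chain that amplifies the signal, measured 5.96, 6.04 and 6.48 in Cdx2/IL-1B nodules, against 6.08, 5.77 and 5.87 in IL-1B nodules. The genotypes overlapped, and the difference was 0.25 ± 0.15 (log2 units, standard error), with an adjusted p of 0.54 by limma. Without sample 52542 the difference of Ms4a2 was 0.09. The gamma chain Fcer1g, which many myeloid cells share, measured 9.22, 10.36 and 9.59 in Cdx2/IL-1B nodules, against 10.16, 9.77 and 10.61 in IL-1B nodules (log2 fold change -0.46, adjusted p = 0.61 with limma). With 1 sample left out, Fcer1g ran from -0.77 to -0.21.

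Kit, the receptor for stem cell factor, measured 9.31, 9.26 and 9.87 in Cdx2/IL-1B nodules, against 8.89, 9.09 and 8.92 in IL-1B nodules. Every Cdx2/IL-1B sample lay above every IL-1B sample, and sample 52542 was the highest. Kit differed by 0.51 ± 0.17 (log2 units, standard error), with an adjusted p of 0.26 by limma, and by 0.31 (log2 units) without sample 52542. KIT is also carried by interstitial cells of Cajal, the pacemaker cells of the gut wall, and by melanocytes. Of 5 markers of interstitial cells of Cajal, 0 were called, and their mean level was 7.44 to 7.71 in Cdx2/IL-1B nodules, against 7.58 to 7.74 in IL-1B nodules. Of 6 melanocyte markers, 0 were called, with mean levels of 6.01 to 6.15 in Cdx2/IL-1B nodules, against 6.01 to 6.06 in IL-1B nodules. Of all probe sets, 1.84% were called. Kitl, which encodes stem cell factor, measured 9.60, 9.71 and 10.13 in Cdx2/IL-1B nodules, against 9.23, 9.36 and 9.20 in IL-1B nodules, without overlap (log2 fold change 0.55, adjusted p = 0.17 with limma). Without sample 52540, Kitl was called (0.65, adjusted p = 0.080 with limma).

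Ear1, an RNase of eosinophil granules in the mouse, had the largest difference of the 10 genes and was the only one past the threshold. Its probe set, of 8 probes (chromosome 14, 44396430 to 44397304, NCBIM37, minus strand), measured 5.71, 5.58 and 5.04 in Cdx2/IL-1B nodules, against 7.25, 6.66 and 7.54 in IL-1B nodules. The highest Cdx2/IL-1B value lay 0.95 below the lowest IL-1B value. Ear1 averaged 5.44 ± 0.35 in Cdx2/IL-1B nodules and 7.15 ± 0.45 in IL-1B nodules (SD, n = 3 each, exact permutation p = 0.10). The log2 fold change was -1.71 (standard error 0.26), a 3.26-fold lower level, with an adjusted p of 0.057 by limma. Of all probe sets, 0.335% were called lower at 2-fold or more. Under 15 alternatives its log2 fold change ran from -1.95 to -1.50. Its adjusted p ran from 0.039 (limma with array weights) to 0.26 (equal-variance test). SAM, the permutation method of the study, gave a q-value of 0.019 when rebuilt. The study's own list from these arrays also holds Ear1 as lower. The call was lost without sample 52541 (0.16), 52543 (0.25), 52544 (0.10) or 52545 (0.16) and kept without 52540 (0.049) or 52542 (0.078), with limma.

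Prg2, eosinophil major basic protein, was not called. It measured 5.17, 5.25 and 5.47 in Cdx2/IL-1B nodules, against 5.27, 5.61 and 5.60 in IL-1B nodules. The genotypes overlapped at samples 52542 and 52543. The log2 fold change was -0.20 (95% interval -0.50 to 0.10, adjusted p = 0.55 with limma), and -0.31 without sample 52543. Both Prg2 and Fcer1a belong to the 5 genes whose mean lay below the median of all probe sets (6.64), with Cma1, Ms4a2 and Ear1, and the table gives no call of presence for them.

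Other eosinophil genes were examined beside Ear1. Of 15 further granule proteins and RNases, 9 were found by symbol and 0 were called (median log2 fold change -0.06, against -0.01 over all probe sets), and Ear3, Ear4, Ear7, Ear12, Rnase2a and Rnase2b were not found. Within the Ear family, Ear1, Ear2 and Ear5 had differences below 0 and Ear11 had one above 0. Ear2 measured 9.35, 9.28 and 8.36 in Cdx2/IL-1B nodules, against 9.11, 9.38 and 9.93 in IL-1B nodules, with overlap (log2 fold change -0.48, adjusted p = 0.58 with limma). Without sample 52542 it was -0.16, and without 52545 it was -0.25. Ear5 measured 9.93, 10.23 and 9.72 in Cdx2/IL-1B nodules, against 10.69, 10.52 and 10.55 in IL-1B nodules, without overlap (log2 fold change -0.63, adjusted p = 0.115 with limma). Ear11 measured 6.08, 5.63 and 5.09 in Cdx2/IL-1B nodules, against 5.07, 5.03 and 4.99 in IL-1B nodules, so that its values were higher (log2 fold change 0.57, adjusted p = 0.35 with limma). It was 0.33 without sample 52540, and it was called without sample 52542 (0.83, adjusted p = 0.081 with limma). Ear11 averaged 5.60 in Cdx2/IL-1B and 5.03 in IL-1B nodules, below the median of all probe sets (6.64).

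The difference of Ear1 was also set against that of Ear2 within each array. Ear1 minus Ear2 was -3.65, -3.70 and -3.32 in Cdx2/IL-1B nodules, against -1.86, -2.72 and -2.39 in IL-1B nodules. These did not overlap and differed by -1.23 (exact two-sided permutation p = 0.10, the smallest possible). The same comparison of Mcpt4 with Mcpt1 gave a difference of -0.21 (exact permutation p = 0.8), and of Mcpt4 with Mcpt2 one of 0.48 (exact permutation p = 0.4), both with overlap. With 1 sample left out, the difference of Mcpt4 minus Mcpt1 within an array ran from -0.82 (without 52543) to 0.44 (without 52545), so that its sign depended on single samples. That of Mcpt4 minus Mcpt2 within an array ran from 0.20 to 0.95, and that of Ear1 minus Ear2 within an array from -1.43 to -1.0. No source used here states how far the probes of 1 Ear gene bind the transcripts of another.

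**Figure D3:**
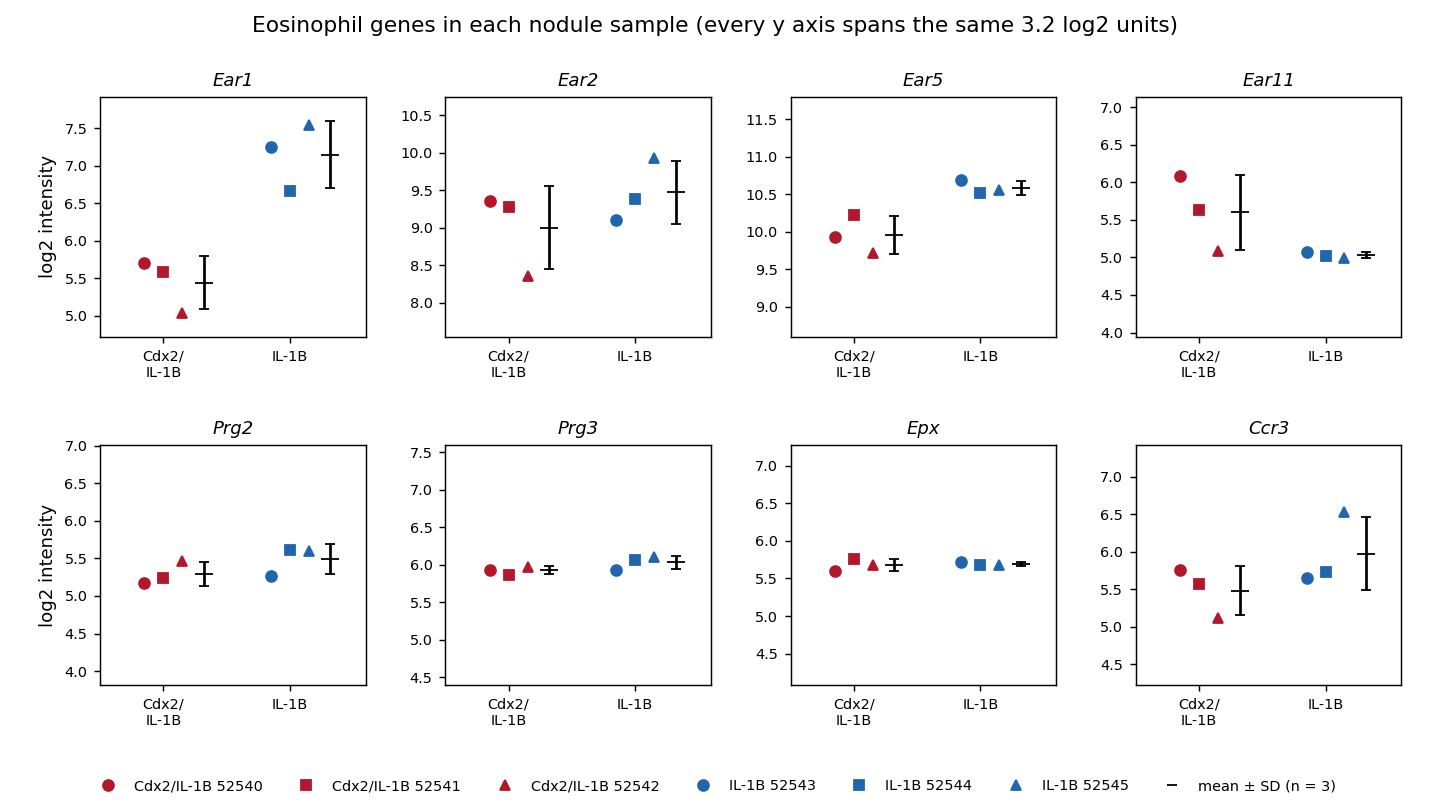
Log2 intensity (y axes of equal span) of Ear1, Ear2, Ear5, Ear11, Prg2, Prg3, Epx and Ccr3 in the Cdx2/IL-1B samples (red, left) and the IL-1B samples (blue, right), with the mean ± SD of 3 samples. The genotype means differ by -1.71 for Ear1, and those of Prg2, Prg3 and Epx, whose intensities all lie below the median of all probe sets (6.64), by -0.20, -0.11 and -0.01.

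Among the defining genes of eosinophils, Epx, the eosinophil peroxidase, measured 5.60, 5.75 and 5.69 in Cdx2/IL-1B nodules, against 5.72, 5.68 and 5.68 in IL-1B nodules (log2 fold change -0.01, adjusted p = 0.96 with limma). Prg3, a homologue of major basic protein chosen after its values were seen, had a log2 fold change of -0.11. Of 14 eosinophil receptors and transcription factors, 0 were called and 11 were below 0 (median -0.16). Of all probe sets, 1.84% were called and 47.3% were above 0 (median -0.01). Il5ra, the interleukin 5 receptor, differed by 0.04, and Siglec5, the array's name for Siglec-F, by -0.07. Il5ra averaged 5.56 in Cdx2/IL-1B and 5.52 in IL-1B nodules, below the median of all probe sets (6.64). Siglec5 (6.49 and 6.57) and Epx (5.68 and 5.69) also averaged below it. Ccr3, the eotaxin receptor, measured 5.75, 5.57 and 5.12 in Cdx2/IL-1B nodules, against 5.65, 5.74 and 6.53 in IL-1B nodules, where sample 52545 was the highest (log2 fold change -0.49, adjusted p = 0.49 with limma). It was -0.22 without sample 52545 and -0.31 without sample 52542. Ccr3 averaged 5.48 in Cdx2/IL-1B and 5.97 in IL-1B nodules, also below that median. Csf2rb and Csf2rb2, signalling chains of the interleukin 3, interleukin 5 and GM-CSF receptors that other myeloid cells also carry, were lower without overlap but not called (log2 fold changes -0.57 and -0.59, adjusted p = 0.17 and 0.127 with limma).

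Of the signals that recruit these cells, none was called. Among 18 type 2 cytokines, alarmins, their receptors and eosinophil chemoattractants, 0 were called (median -0.02), against 1.84% of all probe sets. Il4, Il5 and Il13, the type 2 cytokines, had log2 fold changes of 0.10, 0.03 and -0.10. Il4 averaged 5.15 in Cdx2/IL-1B and 5.05 in IL-1B nodules, and Il5 5.52 and 5.49, below the median of all probe sets (6.64). Il33, an alarmin that activates mast cells, had a log2 fold change of 0.32 (0.14 without sample 52542). Ccl11, eotaxin, measured 10.30, 10.22 and 10.28 in Cdx2/IL-1B nodules, against 10.57, 10.59 and 10.89 in IL-1B nodules. It was lower in every Cdx2/IL-1B sample but not called (log2 fold change -0.42, adjusted p = 0.148 with limma), and Ccl24, another eotaxin, differed by 0.09. Il13ra1, a receptor chain for interleukin 13, differed by -0.20 (adjusted p = 0.28 with limma).

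In all, 104 genes of the 8 lists of mast cell, eosinophil, basophil and type 2 genes were found besides the 10. Against 1.84% of all probe sets, 1 of the 104 was called. This was Srgn, serglycin, the core proteoglycan that holds proteases in mast cell granules and that other leukocytes also make. It measured 9.71, 9.72 and 9.53 in Cdx2/IL-1B nodules, against 10.23, 10.24 and 10.43 in IL-1B nodules, and was lower without overlap (log2 fold change -0.64, adjusted p = 0.047 with limma). Its call was lost with the equal-variance test and without sample 52541, 52543, 52544 or 52545. The other 15 genes of the list of mast cell granule enzymes and mediators were not called (list median -0.01), and Mcpt10 was not found.

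Genes of that list on either side of 0 included the tryptases and the enzymes of small mediators. Tpsb2, a tryptase, measured 7.41, 7.86 and 8.10 in Cdx2/IL-1B nodules, against 7.36, 7.59 and 7.26 in IL-1B nodules (log2 fold change 0.39, adjusted p = 0.43 with limma), and Tpsab1, another tryptase, differed by 0.02. Hdc, which makes histamine, measured 7.32, 7.53 and 8.34 in Cdx2/IL-1B nodules, against 7.58, 7.53 and 7.59 in IL-1B nodules, and only sample 52542 stood out. Slc18a2, which loads histamine and serotonin into granules, differed by 0.69 on the log2 scale (adjusted p = 0.44 with limma). Hpgds, the prostaglandin D2 synthase of mast cells and other leukocytes, measured 8.24, 8.16 and 7.56 in Cdx2/IL-1B nodules, against 8.86, 8.64 and 9.0 in IL-1B nodules (log2 fold change -0.85, adjusted p = 0.134 with limma). Slc18a2 and Hpgds were named with their values known. Which cells of the nodules made the Hdc and Slc18a2 transcripts was not tested. Without sample 52540, Tpsb2 (0.58), Slc18a2 (1.03) and Hpgds (-0.97) were called, with adjusted p of 0.091, 0.097 and 0.078 by limma. Without sample 52542, Tpsb2 was at 0.23, Slc18a2 at 0.38 and Hdc at -0.14.

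Of 16 mast cell receptors and transcription factors, 0 were called, although 13 were above 0 (median 0.11). Of all probe sets, 1.84% were called and 47.3% were above 0 (median -0.01). Ptger3, a prostaglandin E2 receptor, and Mitf, the mast cell and melanocyte transcription factor, were higher in every Cdx2/IL-1B sample (log2 fold changes 0.50 and 0.36, adjusted p = 0.16 and 0.21 with limma), and Gata2 differed by 0.08. Rgs13, a brake on mast cell receptors that was chosen after its values were seen, had a log2 fold change of 0.93 with overlap (adjusted p = 0.47 with limma), and of 0.35 without sample 52545. Of 14 genes that signal below the IgE receptor, 0 were called and 13 were below 0 (median -0.24). Without overlap, 5 of the 14 were lower and 1 was higher, against 11.5% and 8.3% of all probe sets. Among the 13 was Vav1, an exchange factor shared by all leukocytes (-0.34), while Prkcd, a protein kinase C, stood at 0.26. Of 11 genes of KIT signalling, 0 were called (median -0.00), and Socs1, a cytokine signalling inhibitor, differed by -0.36 (adjusted p = 0.26 with limma). Of 9 basophil genes, 0 were called (median -0.03). The basophil protease Mcpt8 differed by -0.07, Il3ra, an interleukin 3 receptor chain, by -0.39, and Itga2, an integrin that epithelium also carries, by -0.39. Without sample 52540, Vav1 and Il3ra were called (-0.42 and -0.51, adjusted p = 0.083 and 0.049 with limma), and without 52542 Itga2 was (-0.52, adjusted p = 0.091 with limma).

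The 4 chymase genes lie together with other granule proteases on chromosome 14 (56560290 to 56881097, NCBIM37), where 16 genes from Cma1 to Gzmb span 320.8 kb. No gene of this stretch was called higher and 2 were called lower, against 0.576% and 1.26% of all probe sets. Gzmb, granzyme B of cytotoxic cells, measured 5.04, 5.14 and 5.42 in Cdx2/IL-1B nodules, against 6.36, 6.0 and 6.53 in IL-1B nodules (log2 fold change -1.10, adjusted p = 0.052 with limma). Gm5801, a predicted gene, differed by -0.46 on the log2 scale (adjusted p = 0.047 with limma), and both genes were named with their values known. Both calls were lost without sample 52541, 52543, 52544 or 52545. The other 6 granzymes differed by -0.10 to 0.06. Cma2, Mcpt9, Mcpt8 and Ctsg, which lie among and beside the 4 chymases, differed by -0.05, -0.11, -0.07 and -0.07. Genotype means of these 4 genes and the 6 granzymes ran from 4.08 (Gzmd, IL-1B) to 5.40 (Mcpt8, IL-1B), below the median of all probe sets (6.64). No call of presence is given for them, so a difference near 0 does not show an expressed gene that was unchanged.

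**Figure D4:**
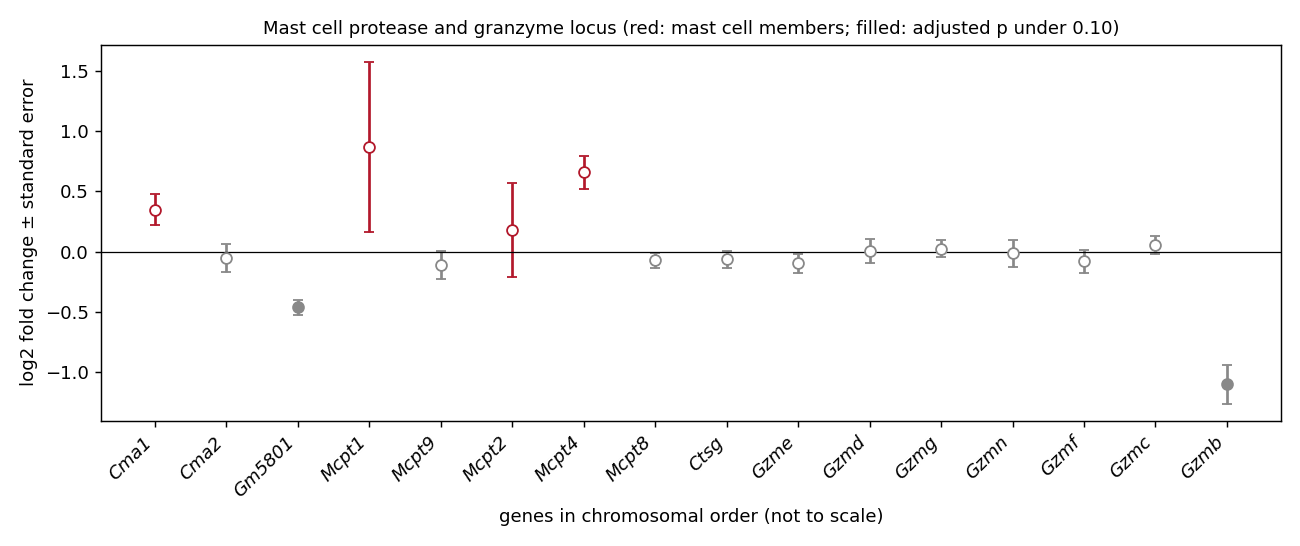
Log2 fold change ± standard error (y axis, Cdx2/IL-1B minus IL-1B) of the 16 genes of the protease locus in chromosomal order, with the chymases Cma1, Mcpt1, Mcpt2 and Mcpt4 in red and filled points for an adjusted p under 0.10. The 4 chymases lie above 0, Gm5801 and Gzmb lie at -0.46 and -1.10, and the remaining 10 genes lie between -0.11 and 0.06. The intensities of those 10 genes lie below the median of all probe sets (6.64).

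How the genes varied together within a genotype was described by the correlation of their deviations from the genotype means over the 6 arrays, which share RNA and normalization. Mcpt2 and Cpa3 (r = 0.96), Mcpt1 and Cpa3 (0.88) and Mcpt1 and Mcpt2 (0.85) moved together. So did Cma1 and Ms4a2 (0.92). The r of Mcpt4 was 0.19 with Mcpt1 and -0.01 with Mcpt2, and 0.47 and 0.16 with the genotype means left in. With 6 arrays, a low r does not show that 2 genes vary apart. Likeness to other genes was taken over the 6 arrays with the genotype means left in. The genes most like the mean of the 5 proteases among the 935 with an SD of at least 0.5 were Sectm1b (r = 0.96), Arl14 (0.94), Cyp2c44 (0.94), Kcnq1 (0.93) and Tmem171 (0.93). Those most like Ear1, among 937 genes, were Lep (0.998), Tgm5 (0.996), Pyhin1 (0.995), Stfa1 (0.991) and Stfa3 (0.982). These 5 were themselves called lower in Cdx2/IL-1B nodules (adjusted p = 0.021 to 0.080 with limma), so their r includes the genotype difference. Ear2 held rank 218 in likeness to Ear1 (r = 0.70).

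Markers of other cells moved with some of these results. Of all probe sets, 1.26% were called lower, and 11.5% were lower and 8.3% higher without overlap. The mean of 10 pan-leukocyte markers was 8.39 to 8.85 in Cdx2/IL-1B nodules, against 9.15 to 9.31 in IL-1B nodules, with 1 marker called lower and 8 lower without overlap. Of 15 neutrophil and granulocyte precursor markers, 5 were called lower, and their mean level was 7.49 to 7.74 in Cdx2/IL-1B nodules, against 8.19 to 8.38 in IL-1B nodules. Of 12 T and NK cell markers, 1 (Gzmb) was called lower, 5 were lower and 1 was higher without overlap, and 4 of the 12 differences were above 0. Their mean level was 6.23 to 6.56 in Cdx2/IL-1B nodules, against 6.73 to 6.80 in IL-1B nodules. The levels of these 3 lists lay lower in the samples where Ear1 and Srgn were lower, and their part in those results was not tested. The mean of the 5 mast cell proteases was instead highest in samples 52541 and 52542. In sample 52540 it was 8.13, below IL-1B samples 52543 (8.47) and 52544 (8.26).

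For 14 macrophage markers, a cell type that also makes Ear RNases in the mouse, 0 were called and 4 were lower without overlap. Their mean level was 8.41 to 8.94 in Cdx2/IL-1B nodules, against 8.73 to 8.88 in IL-1B nodules. Of all probe sets, 1.84% were called, and 11.5% were lower and 8.3% higher without overlap. Of 12 columnar epithelium markers 0 were called, and their level was 11.01 to 11.77 in Cdx2/IL-1B nodules, against 10.85 to 11.23 in IL-1B nodules. Like the mean of the proteases, it was highest in sample 52542 and lowest in sample 52545. The mean of the pancreatic acinar genes was also highest in 52542 (10.17) and lowest in 52545 (6.27). Of 9 smooth muscle markers 0 were called and 4 were higher without overlap, with levels of 11.66 to 11.94 in Cdx2/IL-1B nodules, against 10.79 to 11.78 in IL-1B nodules. Of 8 squamous markers 1 was called lower (Krt14, a basal keratin, log2 fold change -0.57, adjusted p = 0.042 with limma) and 3 were lower without overlap, while their mean level was 12.25 to 12.36 in Cdx2/IL-1B nodules, against 12.30 to 12.36 in IL-1B nodules. The part of epithelium, muscle and pancreatic tissue in the mast cell values was not tested.

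**Figure D5:**
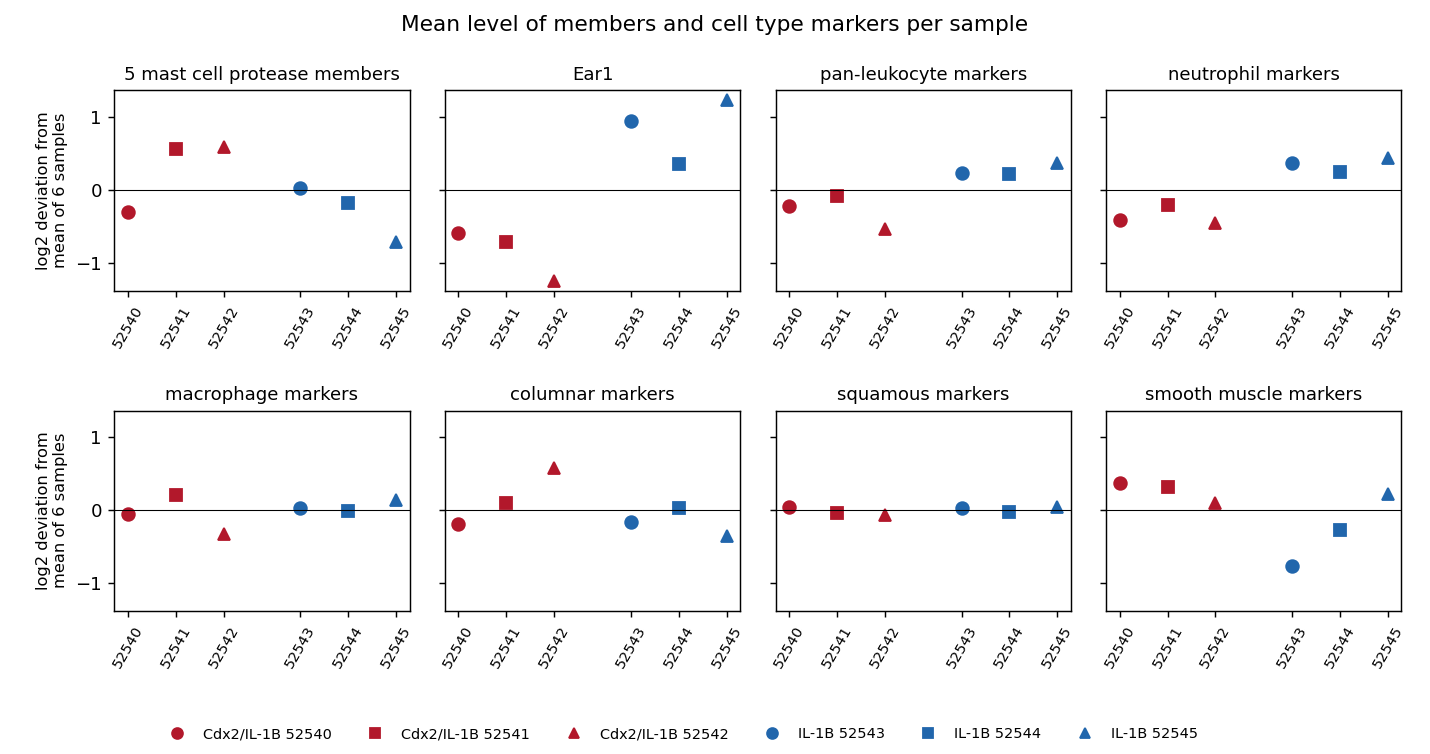
Deviation of each sample from the mean of the 6 samples (y axis, log2 units) for the mean of the 5 mast cell proteases, for Ear1 and for the mean of 6 lists of cell type markers, with the Cdx2/IL-1B samples (red) left of the IL-1B samples (blue). Ear1, the leukocyte markers and the neutrophil markers lie lower in all 3 Cdx2/IL-1B samples, whereas the proteases are highest in samples 52541 and 52542.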

How the data were processed

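Total RNA of SCJ nodules from 3 Cdx2/IL-1B and 3 IL-1B samples was measured on Affymetrix arrays, for which the methods and the design text give different models. The deposited log2 intensities were made by the authors for each probe set and are normalized between arrays (method not given in the sources read). The 2 deposited tables with values per array were identical. The deposited columns of the authors' own comparison (ratio, fold change, SAM score, q-value, p-value and step-up p-value) were not used. Printed gene positions are those of the table's annotation (NCBIM37), although mm8 is the build in the submitters' processing notes. Genotype was the only term of the limma 3.58.1 fit (lmFit and eBayes, R 4.3.3), which covered all 34365 probe sets with Benjamini-Hochberg adjustment. Precision is limited by the number of arrays.

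The genes and lists were chosen with earlier results of these data known. Named were all 10 genes, in each of 8 related lists the genes called and otherwise the 2 with the smallest p, a set of defining genes of these cells and their recruiting signals, Cdx2, and the 5 genes most like the protease mean or Ear1. Others are named as chosen after their values were seen. Alternatives changed the normalization, the filter, the variance model, the test, the threshold and the samples. The non-overlap counts without each sample and the within-array differences were added after seeing the data. Motifs were searched with Python 3.11.15 and promoters aligned with Biopython 1.88. Tables used pandas 2.3.3 and numpy 2.4.6, exact tests scipy 1.17.1 and figures matplotlib 3.10.9.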

Additional observations from a re-analysis of the deposited data

How the results depend on the processing

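With 3 arrays per genotype, the number of calls depended on the variance model and on single arrays, while the directions of 9 of the 10 genes held under every alternative run. Mcpt2 reversed without sample 52542 (-0.06) and without 52545 (-0.19), its range over left-out samples being -0.19 to 0.49. The probe sets called numbered 631, against 0 with the equal-variance test, 1652 with SAM rebuilt, 1528 with array weights and 13 to 2026 with 1 sample left out (13 without 52543, 2026 without 52540). Of the 10 genes, 1 was called (Ear1), against 0 with the equal-variance test, and 2 (Ear1 and Mcpt4) with probe sets naming 1 gene, SAM rebuilt, array weights or the methods' threshold of a 1.5-fold change and an unadjusted p under 0.01, and 0 to 3 with 1 sample left out. Among probe sets above the median the 1 gene called was Mcpt4, as Ear1 was filtered out. Of the genes in the related lists, 1 was called, against 3 among probe sets above the median, 2 with probe sets naming 1 gene, 0 with the equal-variance test, 8 with SAM rebuilt, 7 with array weights, 4 at the methods' threshold and 0 to 9 with 1 sample left out. The non-overlapping genes numbered 5 to 7 with 1 sample left out. Small differences changed sign with 1 sample left out for Hdc (-0.14 to 0.37), Tpsab1 (-0.062 to 0.10), Epx (-0.049 to 0.026, and 0.019 with array weights), Il5ra (-0.0016 to 0.059) and Il5 (-0.034 to 0.075). The cause was not tested. Each of the 10 genes had 1 probe set, so averaging probe sets gave no other value. No paired analysis was possible because no number is shared between the genotypes.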
